A study of Mus musculus with 6 samples.

Results

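The claudins described here are 10 genes of the family that forms tight junctions, Cldn1, Cldn3, Cldn4, Cldn5, Cldn7, Cldn8, Cldn10, Cldn15, Cldn18 and Cldn23. They were taken by name, with earlier results of these data known. All 10 were present among the 24077 genes counted in single cells and the 30828 genes counted in tissue sections of the mouse uterus. The cell data list 27 claudin genes, and the section data hold 35 symbols that begin with Cldn, the claudin domain genes Cldnd1 and Cldnd2 included.

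The uteri came from CD-1 mice of 12 months of age that had been treated neonatally, by injection from day 1 to day 5 of life, with the vehicle corn oil (CO) or with diethylstilbestrol at 1 mg/kg/day (DES), a synthetic estrogen. The single-cell data are 1 CO library from the pooled uteri of 2 mice and 1 DES library from the pooled uteri of 4 mice, and the spatial data are 2 CO sections (CO A and CO B) and 2 DES sections (DES A and DES B), each from its own mouse and all on a common slide. CO mice were collected in estrus, since DES mice remain in estrus. The DES sections were selected to hold adenocarcinoma, CO B had a large tissue fold, and the DES cell library held almost none of the stromal cells, pericytes and endothelial cells of the uterine wall.

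Claudins are membrane proteins that polymerize into the strands of the tight junction, the seal between neighboring epithelial or endothelial cells. Some claudins tighten the seal and others form pores that let ions or water pass, so that the set a cell makes decides how leaky its layer is. In a simple columnar epithelium such as that of the uterus, tight junctions also separate the apical from the basolateral membrane, whereas stratified epithelium keeps a different set of claudins in its layers. Cldn3, Cldn4 and Cldn7 are the common claudins of simple epithelia, Cldn1 is the main barrier claudin of the epidermis, Cldn8 and Cldn10 are known from the kidney tubule (Cldn10 as a pore for ions), Cldn15 is a pore for cations in the intestine, Cldn5 is the claudin of endothelium and Cldn18 is that of the stomach and lung. Cldn23 is a less studied claudin of epithelia.

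Promoters are shown for Cldn4 and Cldn10, on which the epithelial results turn, and for Cldn3, the neighbor of Cldn4 that behaved differently. Cldn4 (chromosome 5, 134945119 to 134946934, minus strand) and Cldn3 (chromosome 5, 134986214 to 134987472, plus strand) lie 39.3 kb apart on GRCm38, the build named mm10 in the submitters' processing notes. Cldn10 (chromosome 14, 118787908 to 118875489, plus strand) has 3 coding transcripts and a pair of separate starts in the RefSeq table. Each sequence is the stretch of 300 bases around a start, with 250 bases before it, from RefSeq on GRCm38.p6, 5′ to 3′ on the strand of the gene. Capitals mark matches to the AP-1 motif TGANTCA, the E-box CACCTG or the GC box GGGCGG, read on both strands.
Cldn4 (chr5:134946885-134947184, minus strand): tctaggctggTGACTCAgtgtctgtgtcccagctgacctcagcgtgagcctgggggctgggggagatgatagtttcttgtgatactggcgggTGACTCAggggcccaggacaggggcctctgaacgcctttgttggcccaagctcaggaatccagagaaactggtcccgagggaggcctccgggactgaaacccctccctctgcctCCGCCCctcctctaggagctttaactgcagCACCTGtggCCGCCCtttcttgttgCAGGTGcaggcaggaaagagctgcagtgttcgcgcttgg
Cldn3 (chr5:134985964-134986263, plus strand): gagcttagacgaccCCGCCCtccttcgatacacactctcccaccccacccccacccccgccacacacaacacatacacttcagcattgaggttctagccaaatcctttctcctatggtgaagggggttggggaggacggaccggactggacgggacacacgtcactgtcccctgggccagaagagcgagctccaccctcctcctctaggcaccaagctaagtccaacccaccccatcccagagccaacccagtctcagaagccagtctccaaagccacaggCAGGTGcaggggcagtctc
Cldn10 upstream start (chr14:118787621-118787920, plus strand): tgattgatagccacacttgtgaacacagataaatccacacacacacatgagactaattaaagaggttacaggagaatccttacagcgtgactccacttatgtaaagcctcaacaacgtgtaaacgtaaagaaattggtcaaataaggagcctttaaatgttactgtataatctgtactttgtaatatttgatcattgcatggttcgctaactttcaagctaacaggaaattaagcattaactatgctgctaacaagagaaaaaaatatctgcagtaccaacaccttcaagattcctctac
Cldn10 downstream start (chr14:118854700-118854999, plus strand): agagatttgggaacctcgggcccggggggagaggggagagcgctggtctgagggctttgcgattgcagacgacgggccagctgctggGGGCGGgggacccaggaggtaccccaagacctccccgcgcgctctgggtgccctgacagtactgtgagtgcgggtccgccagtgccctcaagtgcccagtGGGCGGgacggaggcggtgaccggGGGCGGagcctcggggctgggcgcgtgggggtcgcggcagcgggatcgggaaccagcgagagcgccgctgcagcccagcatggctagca

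The Cldn4 promoter held a pair of AP-1 matches, at 240 and 158 bases before the start, and a pair of E-box matches, at 14 bases before and 12 bases after it. Of 32851 promoters of this length in the table, 7.81% held an AP-1 match, 20.2% an E-box match and 35.7% a GC box. The Cldn3 promoter held an E-box and a GC box and no AP-1 match. The upstream Cldn10 promoter had 36% G and C and 4 CpG dinucleotides and held none of these motifs, whereas the downstream one had 72% G and C, 27 CpG dinucleotides and a GC box at 3 places. Of the 11 promoters of 8 claudins in the table (Cldn8 and Cldn23 were not matched), 7 held a GC box, 3 an E-box and 2 (those of Cldn4 and Cldn15) an AP-1 match. Cldn5 alone held a match to the Grainyhead-like motif AACNGGTT, found in 2.09% of all promoters. These are matches of letters in a window. No binding was measured, and counting from the 3′ end of transcripts does not separate the transcripts of Cldn10 or of Cldn18.

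Values for cells are unique molecular identifiers (UMIs, molecules counted once each) added up within each group of cells and given per 1000000 UMIs of that group (CPM), with exact Poisson 95% intervals. Shares of cells with a UMI were taken after each cell had been thinned to 3000 UMIs, with exact Clopper-Pearson 95% intervals. Both intervals describe counting error alone. Since each condition has 1 library, no difference between CO and DES cells could be tested. The CO library held 32387 cells (median 6779 UMIs), of which 12253 carried a cell type from the authors, and the DES library 16312 cells (median 10153.5 UMIs), of which 9701 did. The libraries shared 180 barcodes (0.556% of CO and 1.10% of DES cells), and levels without those cells are given in the closing section.

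**Figure D1:**
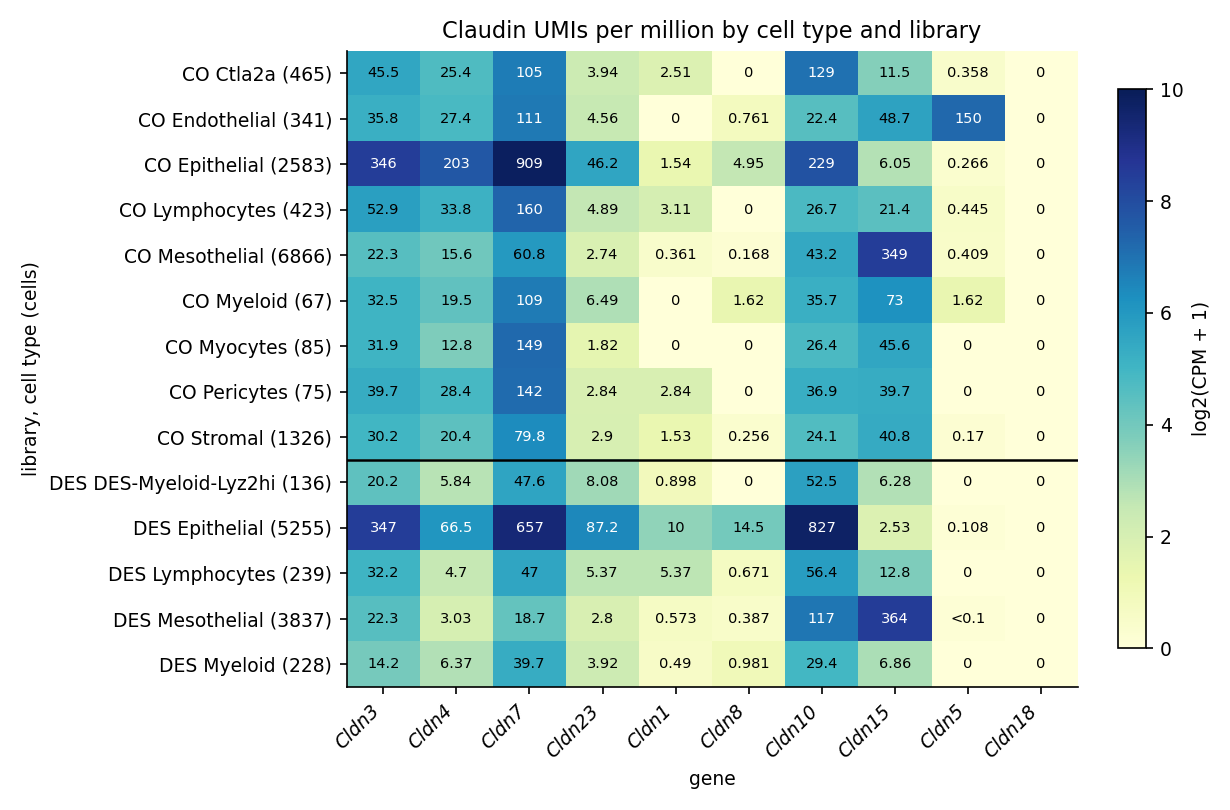
Level of each claudin (columns) in each cell type of the CO library (upper rows) and the DES library (lower rows) as CPM, printed in the cells and colored on a log2(CPM + 1) scale, with the number of cells in parentheses. Cldn3, Cldn4, Cldn7, Cldn10 and Cldn23 are higher in epithelial cells than in any other named cell type of each library, Cldn15 is highest in mesothelial cells (349 and 364 CPM) and Cldn5 in endothelial cells (150 CPM in CO).

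In the CO cell library the epithelium carried a Cldn7-led set of claudins, an order that CO B did not share in its epithelium-rich spots (below). In the 2583 CO epithelial cells Cldn7 stood at 909 CPM, Cldn3 at 346 CPM, Cldn10 at 229 CPM and Cldn4 at 203 CPM. Cldn23 followed at 46.2 CPM, and Cldn8 (4.95 CPM) and Cldn1 (1.54 CPM, 121 UMIs) were rare. These levels count molecules from their 3′ ends and carry no scaling to transcript length. Of all UMIs of the 10 claudins in CO epithelium, 52.1% were Cldn7, 19.8% Cldn3, 13.1% Cldn10 and 11.6% Cldn4. In the 5255 DES epithelial cells the order differed. There Cldn10 led with 827 CPM and 41.1% of claudin UMIs, followed by Cldn7 with 657 CPM and 32.7%. After them came Cldn3 with 347 CPM and 17.2%, Cldn23 with 87.2 CPM and 4.34%, and Cldn4 with 66.5 CPM and 3.31%. Neither DES section had Cldn10 above Cldn7 (below).

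Cldn3 stood at nearly the same level in both libraries, with a DES to CO ratio of 1.00 (interval 0.988 to 1.02). Cldn7 in DES was 0.722 of its CO level (0.716 to 0.729). Cldn4 in DES was 0.327 of its CO level (0.319 to 0.335), a difference of -1.61 on the log2 scale. Cldn10, in contrast, was 3.62-fold higher in DES (3.56 to 3.67), Cldn8 2.92-fold higher (2.62 to 3.26), Cldn23 1.89-fold higher (1.82 to 1.96) and Cldn1 6.54-fold higher (5.44 to 7.93), although at 10.0 CPM Cldn1 remained rare. On the scale of log2(CPM + 1), the differences past 2-fold were those of Cldn10 (1.85), Cldn1 (2.12), Cldn8 (1.38) and Cldn4 (-1.60). Over the 8445 genes with at least 10 CPM in epithelium of either library, 6.28% were at least 2-fold higher and 6.84% at least 2-fold lower in DES. Cldn1 and Cldn8 reached 10 CPM in DES only, so that their place among such genes rests on the library where they are high, and no count of claudins is read against these shares.

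Counted cell by cell at equal depth, Cldn10 was found in 38.3% of CO and 79.2% of DES epithelial cells. Cldn4 was found in 32.1% and 16.6%, Cldn7 in 89.1% and 78.8%, and Cldn3 in 62.5% and 59.7%. Cells with both Cldn7 and Cldn10 made up 32.8% of CO and 66.4% of DES epithelial cells, and those with both Cldn4 and Cldn7 made up 30.1% and 12.0%. Free RNA in the suspension can give UMIs to cells that do not make a gene. Lymphocytes are given for comparison, and the source of their claudin UMIs was not tested. In CO lymphocytes (310 cells of at least 3000 UMIs) 40.0% held Cldn7, 10.97% Cldn4 and 10.0% Cldn10. In DES lymphocytes (213 cells) 13.6% held Cldn7, 0.939% Cldn4 and 11.7% Cldn10. The epithelial shares of these 3 genes lay above the lymphocyte shares in both libraries.

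Outside the epithelium the claudins split by lineage. Cldn15 stood at 349 CPM (345 to 353) in 6866 CO mesothelial cells and at 364 CPM (360 to 369) in 3837 DES mesothelial cells, the cells that line the outer surface of the uterus. A Cldn15 UMI was found in 62.7% of CO and 66.0% of DES mesothelial cells, against 1.80% and 0.846% of epithelial cells. In CO, Cldn15 was also at 40.8 CPM in stromal cells, 48.7 CPM in endothelial cells, 45.6 CPM in myocytes, 73.0 CPM in myeloid cells and 39.7 CPM in pericytes, and at 6.05 CPM in epithelial cells. In CO lymphocytes, again given for comparison, Cldn15 stood at 21.4 CPM (15.7 to 28.3) and was found in 2.90% of cells. It was found in 11.7% of stromal and 10.9% of endothelial cells, 7.46% of 67 myeloid cells, 6.35% of 63 pericytes and 4.76% of 84 myocytes. Cldn5 stood at 150 CPM (136 to 166, from 395 UMIs) in 341 CO endothelial cells and at no more than 1.62 CPM in the other CO types of over 50 cells. The DES library held 5 endothelial cells, and these carried 121 of its Cldn5 UMIs. Cldn10 was also at 129 CPM in the CO cells that the authors call Ctla2a cells and at 43.2 and 117 CPM in CO and DES mesothelial cells. In the Ctla2a cells Cldn7 stood at 105 CPM. The part of free RNA in these levels was not tested.

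**Figure D2:**
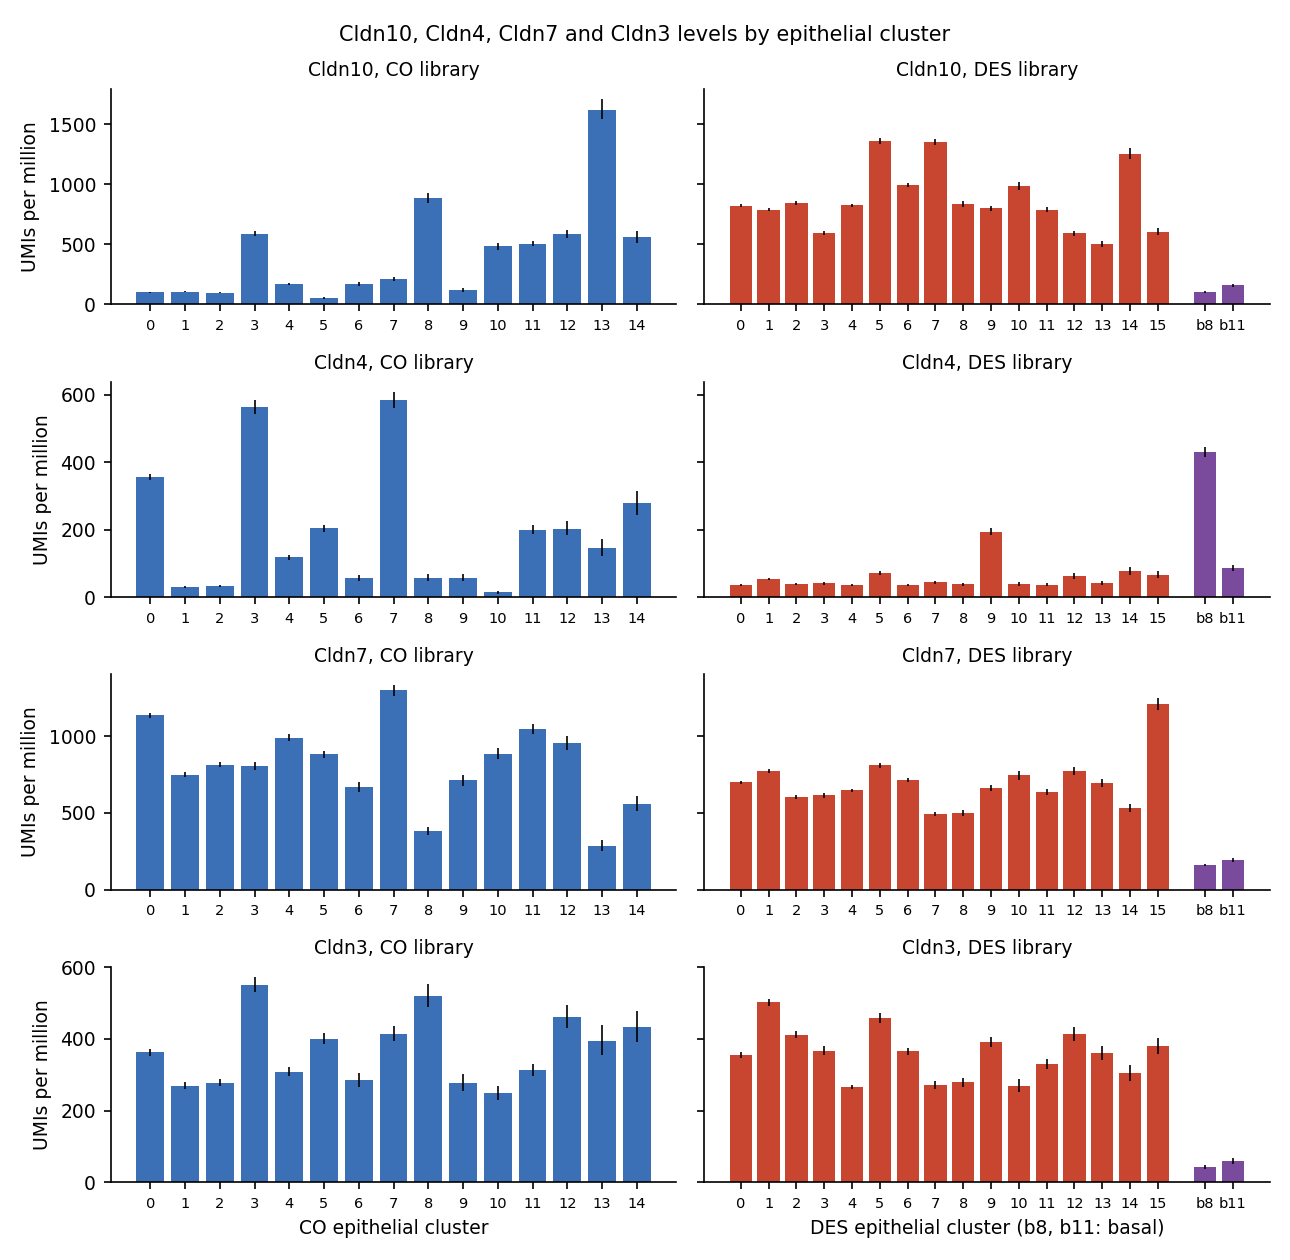
Levels of Cldn10, Cldn4, Cldn7 and Cldn3 in CPM (bars, from 0) in the authors' CO epithelial clusters (left) and DES epithelial clusters (right, with the basal clusters 8 and 11 of the integrated clustering as b8 and b11), with exact Poisson 95% intervals as lines. In CO, Cldn10 peaks at 1624 CPM in cluster 13 and Cldn4 at 584 CPM in cluster 7, and in DES, Cldn4 is at 430 CPM in basal cluster 8, where Cldn10 is at 100.03 CPM.

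Within the CO epithelium Cldn10 and Cldn4 varied far more between the authors' 15 clusters than Cldn3 and Cldn7 did. This is a description, since the same counts had been used to form the clusters. Cldn3 ranged from 249 to 550 CPM and Cldn7 from 286 to 1299 CPM. Cldn10 ranged from 53.1 CPM in cluster 5 to 1624 CPM (1541 to 1710) in cluster 13, the mature gland cluster of 62 cells, where it made up 63.0% of claudin UMIs. Cldn8 also stood highest in cluster 13, at 73.0 CPM (56.3 to 93.0), against 0.724 to 14.8 CPM in the others. Cldn7 was lowest in that cluster. The claudin set of this gland cluster was led by Cldn10 and that of the rest of the CO epithelium by Cldn7, apart from cluster 8, with 884 CPM of Cldn10 and 383 CPM of Cldn7, and cluster 14, where they stood at 562 and 560 CPM with overlapping intervals.

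Cldn4 was high in luminal clusters 7 (584 CPM) and 0 (357 CPM) and in developing gland cluster 3 (564 CPM), and low in clusters 10 (13.8 CPM), 1 (29.4 CPM) and 2 (33.3 CPM). High Cldn4 was found in luminal as well as in glandular clusters of the control. Summed over the luminal clusters (2095 cells), Cldn4 stood at 182 CPM, Cldn10 at 152 CPM and Cldn7 at 944 CPM. In the developing gland clusters (355 cells) they stood at 399, 661 and 668 CPM.

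In DES no non-basal cluster had the Cldn7-led, Cldn10-poor set of most CO luminal clusters. Across the 16 DES clusters Cldn10 ranged from 503 CPM (cluster 13) to 1360 CPM in cluster 5, which the study proposes as cancer cells, and 1353 CPM in cluster 7. The lowest of these clusters lay above the luminal sum of CO. Cldn4 ranged from 34.2 to 75.9 CPM in 15 of the clusters and stood at 194 CPM in cluster 9. Cldn1 ranged from 2.93 CPM in cluster 5 to 29.7 CPM in cluster 7 and 20.8 CPM in cluster 9. Cldn3 ranged from 265 to 501 CPM and Cldn7 from 492 to 1208 CPM, each within the range of the CO clusters.

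The basal cells of the DES library carried another set. These cells hold the stratified keratins Krt5 (1734 CPM) and Krt14 (3554 CPM) and the basal factor Trp63 (240 CPM). Krt6a and Dsg3, which complete the list of basal markers used below, added little to its sum in them. They form clusters 8 (351 cells) and 11 (257 cells) of the authors' integrated clustering. Cldn4 stood at 430 CPM in cluster 8 and at 85.9 CPM in cluster 11, against 50.2 CPM in non-basal DES epithelium. Cldn3 was at 42.7 and 59.1 CPM against 365 CPM. Cldn7 was at 160 and 192 CPM against 680 CPM, Cldn10 at 100.03 and 160 CPM against 874 CPM, and Cldn23 at 10.2 and 16.3 CPM against 91.7 CPM. Cldn1 was higher in cluster 8 (14.8 CPM) and nearly the same in cluster 11 (9.90 CPM), against 9.64 CPM. Cldn4 made up 56.2% of claudin UMIs in cluster 8, but in cluster 11 it made up 16.1% and lay below Cldn7 and Cldn10, and below non-basal DES cluster 9 (194 CPM). Without the basal cells, Cldn4 in DES epithelium was 0.247 of the CO level (0.240 to 0.254).

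Likeness between genes was measured by Pearson's r of log2(CPM + 1) over the 42 groups of at least 50 cells from both libraries, which share libraries and depth, and is given as a description. Cldn3 was most like Spint1, Prss8 and Epcam (0.97), and Cldn7 most like Cdh1 (0.98), Cd24a and Epcam (0.97). Cldn23 was most like Pax2 (0.97), Grb7 (0.97) and Dlx5 (0.96). Cldn10 was most like Ces1e, Jtb and Nrg4 (0.89), Cldn8 most like Nrg4, Dnah14 (0.91) and Slc1a1 (0.90), and Cldn4 most like Cstf3 (0.89), F2rl1 (0.86) and Chka (0.84). Cldn1 was most like Gja3 (0.87), Wnt7a (0.83) and Topaz1 (0.81), and Cldn15 most like Ptgis (0.96), Rspo1 and Gpm6a (0.95). For Cldn5 the values (Tbx1, RP23-85G19.2 and Lhx6, all 0.95) rest on 1 high group, the CO endothelial cells. Between claudins, r was 0.94 for Cldn3 with Cldn7 and with Cldn23, 0.87 for Cldn8 with Cldn10 and 0.41 for Cldn4 with Cldn10.

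Cldn18 was not found in any cell with a cell type. It had 89 UMIs in 58 cells, 7 of them in CO (15 UMIs) and 51 in DES (74 UMIs), all left without a cell type by the authors. A count of 0 among 12253 typed CO and 9701 typed DES cells allows shares of cells with a UMI of up to 0.0245% and 0.0309%, which sets no limit on cells that make Cldn18 at a level too low to be counted. No section held a Cldn18 UMI, and 3 UMIs correspond to 0.240 CPM in CO A. The cells with Cldn18 are described in the closing section.

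In the sections a spot covers several cells, so a level combines the makeup of the tissue with the level per cell, and fewer cells of a type cannot be told apart from less RNA per cell. The sections held 9117099 to 12506177 UMIs in 1357 to 1834 spots. Summed lists of cell type markers differed between conditions. The 5 basal or squamous markers (Krt5, Krt14, Trp63, Krt6a and Dsg3) summed to 3.52 and 174 CPM in CO A and CO B, with Dsg3 at 0 in both, and to 10080 and 5870 CPM in DES A and DES B, where all 5 were found. The 5 epithelial markers summed to 2938 and 1824 CPM in CO and 3048 and 3283 CPM in DES. Smooth muscle markers summed to 13345 and 14168 CPM in CO and 3077 and 3458 CPM in DES, stromal markers to 2452 and 2453 against 1140 and 762 CPM, endothelial markers to 143 and 233 against 115 and 108 CPM, and immune markers to 168 and 385 against 1651 and 846 CPM. The part of these differences in the section results was not tested.

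**Figure D3:**
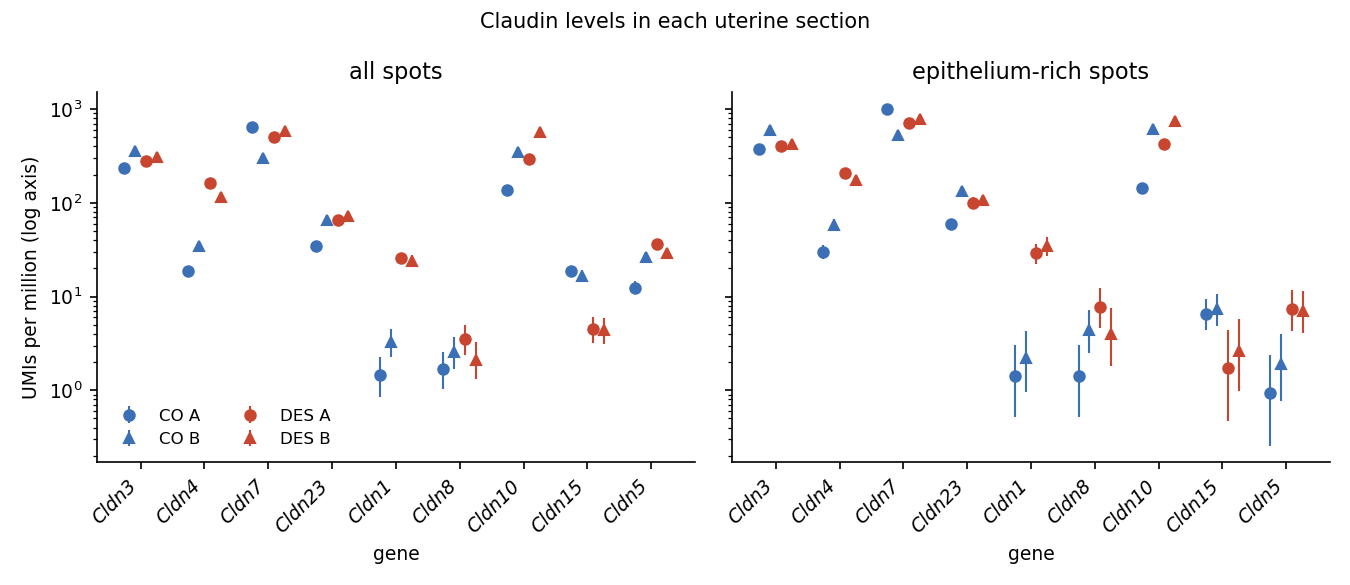
Level of 9 claudins in CPM (log axis) in CO A, CO B, DES A and DES B over all spots (left) and over epithelium-rich spots (right), with exact Poisson 95% intervals as lines. Both DES sections lie above both CO sections for Cldn1 and Cldn4 and below them for Cldn15 in both panels. Cldn18 had no UMI and is not drawn.

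Cldn4 stood at 18.6 CPM in CO A, 34.9 CPM in CO B, 163 CPM in section DES A and 116 CPM in section DES B. Both DES sections lay above both CO sections. The difference was 2.18 ± 0.35 (log2, SE), a 4.53-fold higher level in DES, and passed edgeR's quasi-likelihood test over all genes (adjusted p = 0.0399). Cldn1 stood at 1.44, 3.26, 25.8 and 24.2 CPM in the same order, 3.21 ± 0.41 higher on the log2 scale (9.27-fold, adjusted p = 0.0276 by the same edgeR test). Its CO values rest on 18 and 36 UMIs. Cldn15 stood at 18.9, 16.6, 4.50 and 4.35 CPM and fell by 2.21 on the log2 scale (SE 0.23, edgeR adjusted p = 0.0215). In the cell data Cldn15 was highest in mesothelial cells. Among the spot clusters of CO A and CO B it was highest in those the paper identifies as stroma, clusters 8 (44.8 CPM) and 6 (46.6 CPM). In DES A it stood at 6.89 CPM in stromal cluster 4 and was highest in cluster 6 (18.6 CPM, from 10 UMIs). The 4 mesothelial markers (Msln, Upk3b, Lrrn4 and Upk1b) summed to 5.84 and 6.07 CPM in CO and 24.7 and 33.6 CPM in DES. In DES that list was higher in epithelium-rich than in other spots (29.7 against 23.0 CPM in DES A and 48.2 against 29.3 CPM in DES B). In CO it was lower there (0.936 against 8.38 and 1.10 against 8.54 CPM), from 4 UMIs in each section. Msln and Lrrn4 had no UMI in these spots of either CO section. The lists lower in both DES sections were those of smooth muscle, stroma, endothelium, pericytes (182 and 239 against 74.8 and 71.8 CPM) and proliferation (35.5 and 19.1 against 17.8 and 11.8 CPM).

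These 3 of 9 tested claudins compare with 5.30% of the 14098 genes tested that passed in this comparison (2.67% higher and 2.63% lower in DES). The median log2 difference was 0.26 over the 9 claudins and -0.01 over all genes. Cldn10 stood at 137, 346, 293 and 576 CPM, with CO B above DES A, and its difference of 0.66 ± 0.54 did not pass (adjusted p = 0.526, edgeR), with values from 0.04 to 1.44 when 1 section was left out. Cldn7 stood at 643, 301, 509 and 582 CPM, so that both the highest and the lowest value were those of CO sections (log2 -0.01, adjusted p = 0.995). Cldn3 (237, 355, 279 and 312 CPM), Cldn23 (34.9, 66.0, 65.4 and 72.9 CPM), Cldn5 (12.5, 26.7, 36.5 and 29.5 CPM) and Cldn8 (1.68, 2.54, 3.51 and 2.13 CPM) had edgeR adjusted p-values of 0.444 to 0.834. Without either DES section no claudin passed. With 1 section left in a group, the spread comes from the other group, and the lone section is assumed to vary like it. There Cldn1 stood at log2 3.19 and 3.21, Cldn4 at 1.95 and 2.37 and Cldn15 at -2.21 and -2.24, and only 14 and 3 genes of the whole table passed in those fits. Cldn1 was 2.75 without CO A and 3.87 without CO B.

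To compare spots rich in epithelium, the 20% of spots in each section richest in Epcam, Cdh1, Krt8, Krt18 and Krt19 were summed (285, 363, 302 and 260 spots). No claudin was used to choose them. There Cldn4 stood at 29.9 and 58.4 CPM in CO and 206 and 175 CPM in DES, and the difference of 1.81 ± 0.33 passed (3.50-fold, edgeR adjusted p = 0.0390). Cldn1 stood at 1.404 and 2.19 CPM in CO (6 and 8 UMIs) and 28.9 and 34.5 CPM in DES (67 and 78 UMIs), and the difference of 3.82 ± 0.37 passed (14.1-fold, edgeR adjusted p = 0.0131). These 2 of 9 claudins compare with 7.39% of 11728 genes that passed (4.54% higher and 2.85% lower in DES). Cldn1 entered this test only through the DES sections, since its CO levels lay below the expression filter (filterByExpr). Its p-value and its place in this count are therefore not read as a result. Without DES A the Cldn4 difference was 1.71 (adjusted p = 0.141, edgeR) and without DES B 1.90 (0.120), and that of Cldn1 was 3.97 and 3.66, each with the spread of the CO sections alone. The chosen spots also differed in other markers, with 5.15 and 193 CPM of basal markers in CO against 9796 and 7071 CPM in DES, and 66.4 and 106 CPM of immune markers against 1390 and 566 CPM. Their part in these differences was not tested. Per 1000 UMIs of the epithelial markers over all spots, Cldn4 stood at 6.34 and 19.1 UMIs in CO and 53.6 and 35.5 UMIs in DES.

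The other claudins did not pass in epithelium-rich spots. Cldn10 stood at 143 and 622 CPM in CO and 425 and 752 CPM in DES, so that the CO sections lay further apart than the conditions (log2 0.34 ± 0.67, edgeR adjusted p = 0.792). Without CO B, the section with the tissue fold, Cldn10 was 1.72 higher in DES on the log2 scale (adjusted p = 0.000117, edgeR, with the spread of the DES sections alone), and without CO A it was lower by 0.36. The 4 gland markers (Foxa2, Sult1d1, Prss29 and Spink1) in these spots summed to 12.9 CPM in CO A and 119 CPM in CO B, against 36.2 and 67.6 CPM in DES, in the same order as Cldn10 apart from CO B and DES B. Within these spots, Cldn10 in the part richest in gland markers was 1.19, 1.09, 1.15 and 0.990 times its level in the rest (CO A, CO B, DES A, DES B). The list was sparse there, with 55, 434, 84 and 153 UMIs, and Prss29 and Spink1 had none in CO A, DES A and DES B. In CO A and DES A the rest held no gland marker UMI. The richest part of CO A had 71 spots, so some of them held none either. These ratios cannot show whether Cldn10 follows the glands. Cldn7 stood at 1009, 528, 715 and 791 CPM, and Cldn3 at 379, 606, 405 and 423 CPM. Cldn7 was thus the highest claudin in CO A, DES A and DES B, in DES B with an interval overlapping that of Cldn10. In CO B both Cldn10 and Cldn3 stood above it. The cells had another order, led by Cldn7 in CO and by Cldn10 in DES. Cldn15 (6.55 and 7.40 against 1.72 and 2.65 CPM) was lower in both DES sections with an edgeR adjusted p of 0.0696, and Cldn5 (0.936 and 1.92 against 7.32 and 7.07 CPM, from 4 to 17 UMIs) was higher in both with an adjusted p of 0.0829. Cldn15 cleared the expression filter only through the CO sections, and Cldn5 only through the DES sections. Neither p-value is therefore read as a result.

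**Figure D4:**
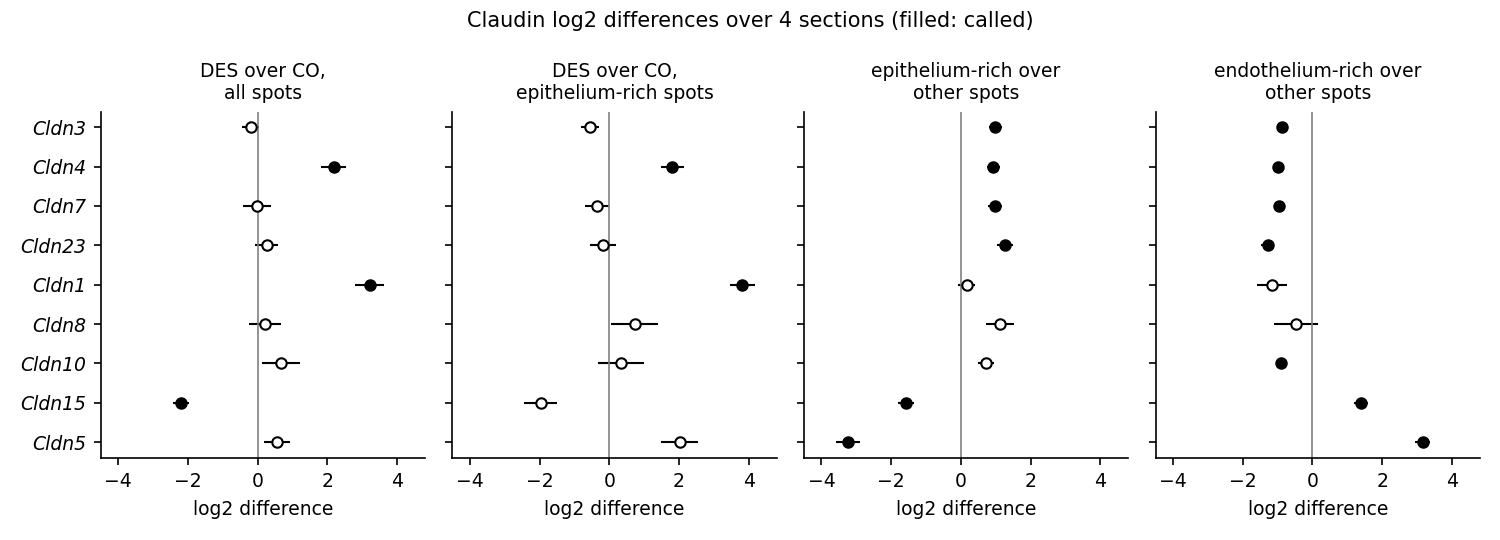
Log2 difference from edgeR (points) for 9 claudins in the 4 comparisons of sections, with a standard error derived from the F statistic of its test (lines). Filled points passed an adjusted p of 0.05. Cldn4 is called in both comparisons of DES with CO. Cldn1 is filled in both, but in epithelium-rich spots it entered only through the DES sections. That call of Cldn1 is not read as a result. Cldn5 has the lowest value in epithelium-rich against other spots and the highest in endothelium-rich against other spots.

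Within the sections, claudins were compared between kinds of spots. In epithelium-rich against other spots, with the section as a block, 4 of 9 claudins were higher and 2 lower, against 17.0% of 12830 genes that passed in either direction (5.68% higher and 11.3% lower). Cldn23 was higher by 1.26 ± 0.23 on the log2 scale (edgeR adjusted p = 0.0194), Cldn3 by 0.99 ± 0.18 (0.0199), Cldn7 by 0.97 ± 0.19 (0.0235) and Cldn4 by 0.93 ± 0.19 (0.0242). Cldn5 was lower by 3.24 ± 0.33 (0.00573) and Cldn15 by 1.57 ± 0.23 (0.0121). Cldn10 (0.73 ± 0.24, adjusted p = 0.0719), Cldn8 (1.13 ± 0.40, 0.0863) and Cldn1 (0.16 ± 0.25, 0.658) did not pass. Without CO A none of the 9 passed and 11 genes of the whole table did, and without CO B Cldn5 and Cldn23 passed, while the log2 differences with 1 section left out ranged from 0.84 to 1.12 for Cldn3, 0.79 to 1.09 for Cldn4, 0.80 to 1.10 for Cldn7, 1.01 to 1.43 for Cldn23, -3.59 to -2.91 for Cldn5 and -1.73 to -1.40 for Cldn15. Cldn1 in DES A was 28.9 CPM in epithelium-rich and 24.7 CPM in other spots, and in DES B 34.5 and 21.2 CPM.

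In endothelium-rich spots, chosen by Pecam1, Cdh5, Kdr, Emcn, Tie1 and Egfl7, Cldn5 was higher than in other spots by 3.16 ± 0.22 on the log2 scale (8.94-fold, edgeR adjusted p = 5.02e-05). It stood at 47.1 against 8.18 CPM in CO A, 103 against 15.8 CPM in CO B, 205 against 13.6 CPM in DES A and 146 against 14.6 CPM in DES B, so the enrichment was present in every section. Cldn15 was higher by 1.39 ± 0.21 (adjusted p = 0.000951, edgeR), with 37.0 against 16.6 CPM in CO A, 37.4 against 13.7 in CO B, 13.8 against 3.25 in DES A and 8.93 against 3.77 CPM in DES B. Cldn3, Cldn4, Cldn7, Cldn10 and Cldn23 were lower by 0.87 to 1.29, and Cldn1 (-1.16) and Cldn8 (-0.48) did not pass. These 7 of 9 claudins compare with 29.3% of 12777 genes that passed (15.2% higher and 14.1% lower). In both splits the markers and the claudins were counted in the same spots, and Visium spots of endothelium also held stroma and muscle, whose markers summed to 1672 to 4044 and 8940 to 17192 CPM there.

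**Figure D5:**
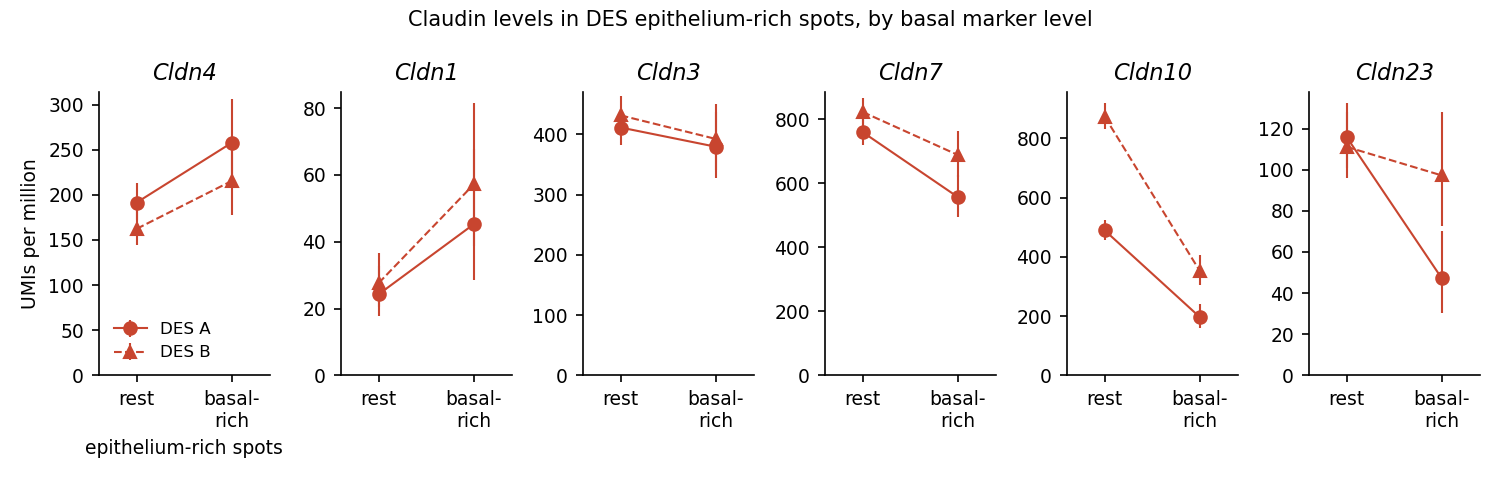
Levels of 6 claudins in CPM in the epithelium-rich spots of DES A and DES B, split into the part richest in basal markers (76 and 65 spots) and the rest, with exact Poisson 95% intervals as lines. Cldn4 and Cldn1 are higher and Cldn10 lower in the basal part of both sections, with overlapping intervals for Cldn4 in DES B and Cldn1 in DES A.

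Since Cldn4 was high in basal cluster 8 of the DES library, the epithelium-rich spots of each section were split by their basal marker level after these results had been seen, and no test was made. In the part richest in these markers (76 and 65 spots) Cldn4 was 1.35-fold higher than in the rest in DES A (258 against 191 CPM) and 1.33-fold higher in DES B (215 against 162 CPM). Cldn1 was 1.86-fold higher in DES A (23 UMIs, against 44 in the rest) and 2.07-fold higher in DES B (30 against 48 UMIs). The intervals overlapped for Cldn4 in DES B and for Cldn1 in DES A. Cldn10 was at 0.402 and 0.404 of the level in the rest, Cldn7 at 0.733 and 0.837, and Cldn3 at 0.922 and 0.909. Cldn23 was at 0.407 in DES A and 0.875 in DES B, so the sections differed for it. The same split was made in CO A and CO B, where the part richest in basal markers held 18.2 and 666 CPM of them. Ratios to the rest were 1.07 and 1.98 for Cldn4, 0.736 and 0.613 for Cldn10 and 0.981 and 1.30 for Cldn7. For Cldn3 they were 0.941 and 1.06, and for Cldn23 0.874 and 1.04. In CO A the richest part held 22 basal marker UMIs in 71 spots and the rest held none. Most of its spots thus carried no basal marker, and its ratios cannot show how claudins follow these markers. Cldn1 had 0 and 1 UMI in that part of CO A and CO B and 6 and 7 UMIs in the rest. In DES the rest of the spots was not free of basal markers (7333 and 5380 CPM), and its Cldn4 level remained above that of the epithelium-rich spots of either CO section.

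Among the authors' spot clusters, a small control cluster also held basal markers. Cluster 10 of CO B, with 17 spots, held the basal markers at 6763 CPM, against at most 95.8 CPM in the other clusters of that section. Its Cldn4 level was 158 CPM (107 to 224, from 31 UMIs), against 0 to 55.8 CPM in the others, and its Cldn10 level was 71.2 CPM, against 653 CPM in cluster 2, the cluster of CO B richest in epithelial markers. In DES A, Cldn4 was highest in cluster 8 (284 CPM, basal markers 10009 CPM) and stood at 208 CPM in cluster 1, where the basal markers were highest (16076 CPM), but at 85.7 CPM in cluster 4 with 7298 CPM of basal markers. In cluster 2 of DES A, which had 5285 CPM of basal markers, Cldn4 stood at 149 CPM and Cldn10 at 634 CPM. In DES B, Cldn4 was highest in cluster 6 (275 CPM, 163 to 435, from 18 UMIs) with 4484 CPM of basal markers, and stood at 186 CPM in cluster 7, where the basal markers were highest (10072 CPM), and at 131 CPM in cluster 1 (8597 CPM). Among other DES A clusters, Cldn4 stood at 161 CPM in cluster 5 (13180 CPM of basal markers) and 65.9 CPM in cluster 3 (4501 CPM). It was 11.2 and 5.00 CPM in clusters 6 and 7 (956 and 1401 CPM), which also held few epithelial markers (332 and 370 CPM). In DES B it was 155 CPM in cluster 4 (8977 CPM), 94.5 CPM in cluster 3 (5103 CPM) and 110 CPM in cluster 2 (3387 CPM). The orders by Cldn4 and by basal markers were not identical in either DES section, and their relation was not tested.

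The direction of Cldn4 differed between the kinds of data. It was lower in DES than in CO epithelial cells and higher in DES than in CO sections. In the cell data the 5 basal markers summed to 422 CPM over all DES epithelial cells and to 5555 CPM in the basal cells, and in epithelium-rich spots of DES A and DES B to 9796 and 7071 CPM. The share of basal cells in the sections cannot be read from spots, and the part of that share in the difference was not tested. The CO values also differed, with 203 CPM of Cldn4 in CO epithelial cells and 29.9 and 58.4 CPM in CO epithelium-rich spots, whereas Cldn3 stood at 346 CPM in the cells and 379 and 606 CPM in the spots.

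The tight junction genes other than claudins, listed as 32 genes of which 29 were in the files are given here by their counts. In whole sections, where 5.30% of all genes passed, 2 of 29 were higher in DES, among them Ildr1 (log2 1.44, edgeR adjusted p = 0.0308), a protein of tricellular contacts, and none was lower. In epithelium-rich spots, where 7.39% of all genes passed, none was higher and 2 were lower in DES, Cxadr (-1.15, edgeR adjusted p = 0.0354), an adhesion protein of the junction, and Cgnl1 (-1.06, 0.0430), a cytoplasmic plaque protein. In epithelial cells Cxadr stood at 134 CPM in CO and 67.2 CPM in DES, and Cgnl1 at 118 and 49.97 CPM. In epithelium-rich against other spots (17.0% of all genes) 15 of the 29 were higher, among them Ocln, Marveld2 and Marveld3 of the occludin family and also Epcam, whose level had been used to choose the spots, and 3 were lower, Jam2, Jam3 and Esam, which are junction proteins of vessels. In endothelium-rich spots (29.3% of all genes) those 3 were higher and 20 were lower. The median log2 difference of the list between DES and CO was 0.26 in sections and -0.08 in epithelium-rich spots.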

How the data were processed

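Uteri of CO and DES mice were measured in 2 single-cell libraries and 4 Visium sections. The authors counted UMIs per gene with Cell Ranger 3.0.1 (cells, GENCODE genes on mm10) and Space Ranger 1.2.2 (spots), and the deposited counts are not normalized. They removed doublets with scran and named cell types and epithelial clusters, which were used as deposited. Here, counts were summed per group of cells and given per 1000000 UMIs, or summed per section and compared with edgeR 4.0.16 (TMM, filterByExpr, quasi-likelihood test, Benjamini-Hochberg at 0.05 over all genes) in R 4.3.3. Spots with at least 500 UMIs were ranked by the share of marker UMIs and the top 20% taken. With 2 sections against 2, a permutation test cannot go below p = 0.333, and edgeR's p-values borrow their estimate of the spread from the other genes. Each SE given for a section result is the absolute log2 difference divided by the square root of the F statistic of its edgeR test. The edgeR steps were run on simulated counts with the same spread for all genes, which gives no error rate for the real sections. Alternatives included DESeq2 1.42.0, other size factors and filters, each section left out, other spot shares and other thinning depths. The members and gene lists were chosen with earlier results of these data known. Named were all 10 claudins, the 3 largest called changes each way of the tight junction list and the 3 genes most like each claudin. Of the tight junction list, 1 called gene is not reported here. The section letters did not pair the sections (correlation of the A minus B differences in CO and DES -0.03). A further 350 metadata entries had no counts and were not used.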

Additional observations from a re-analysis of the deposited data

Results flagged for a closer look

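Cldn4 moved in opposite directions in the 2 kinds of data, and the difference between them was not tested. On the log2 scale DES over CO was 2.18 in the sections, where both DES sections lay above both CO sections, and -1.61 in epithelial cells, where there is 1 library per condition. Cldn5 also had opposite signs, 0.55 in the sections, a value that did not pass edgeR's test (adjusted p = 0.444), and -1.31 in epithelial cells, from 21 and 19 UMIs, and this difference was not tested either.

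Cldn18, the claudin of stomach and lung, had UMIs outside the groups compared above, 15 in CO and 74 in DES cells without a cell type, and none in typed cells. Genes of gastric surface cells, chosen after their values were seen, were abundant in the summed counts of the same cells. A UMI of Gkn1, Gkn2, Tff1 and Tff2 was found in 5, 4, 5 and 6 of the 7 CO cells. In DES it was found in 24, 24, 30 and 39 of the 51 cells. Gkn1 stood at 34758 CPM in the 7 CO and 32652 CPM in the 51 DES cells, Gkn2 at 26572 and 24073 CPM, Tff1 at 35872 and 35085 CPM, and Tff2 at 10629 and 21587 CPM, against at most 7.31 CPM of any of the 4 in typed cells. Of these cells, 6 in CO and 6 in DES had barcodes held by both libraries. Their source was not tested.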

How the results depend on the processing

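In sections, DESeq2 called 1791 genes (747 by edgeR), among them 3 claudins. Leaving out 1 section moved the counts most. Genes called ranged from 3 to 2822 in sections (claudins 0 to 5), from 157 to 3621 in epithelium-rich spots (claudins 1 to 5), from 11 to 2629 for epithelium-rich against other spots (claudins 0 to 6) and from 2580 to 3449 for endothelium-rich spots (claudins 7 to 8). The low counts came without a DES section in the comparisons of DES with CO, and without a CO section for epithelium-rich against other spots. Among the section results, log2 signs turned for claudins that had not passed. With 1 section left out, the values in sections ranged from -0.45 to 0.087 for Cldn3 (positive without CO B), from -0.47 to 0.68 for Cldn7 (0.68 without CO A, 0.10 without DES A), from -0.17 to 0.50 for Cldn8 (-0.04 without CO A, -0.17 without DES A) and from -0.12 to 0.75 for Cldn23 (negative without CO A). In epithelium-rich spots they ranged from -0.75 to 0.23 for Cldn7 (positive without CO A), from -0.36 to 1.72 for Cldn10 (-0.36 without CO A, -0.16 without DES B) and from -0.63 to 0.49 for Cldn23 (positive without CO B). Cldn1 in epithelium-rich against other spots ranged from -0.12 (without DES B) to 0.36. The cause was not tested.

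With the section letter as a replicate block, 527 genes and 2 claudins passed in sections, Cldn4 did not (log2 2.22, edgeR adjusted p = 0.0571) and Cldn7 was 0.10, and 794 genes and 2 claudins passed in epithelium-rich spots. The letters do not mark shared animals. Cldn15 passed in epithelium-rich DES against CO spots with the top 30% of spots (-2.80) or with 3 epithelial markers (-2.20). The same expression filter was used there, and in the main fit Cldn15 had cleared it only through the CO sections. These passes are therefore not read as a result. In cells, the mean over cells gave -1.36 for Cldn4, 1.38 for Cldn10 and -0.047 for Cldn3, against -1.61, 1.85 and 0.0028 from summed UMIs. Without the shared barcodes these were -1.60, 1.86 and 0.0053, with -0.47 for Cldn7 and 2.71 for Cldn1. Cldn5 rests on few UMIs in epithelium.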

Other observations

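Most other claudins were sparse, and the pair described here was chosen after their values were seen. Cldn2, a pore claudin of leaky epithelia, stood at 11.9 CPM in CO and 3.04 CPM in DES epithelial cells (938 and 535 UMIs), with its highest level, 124 CPM (113 to 136), in CO cluster 11. In the sections Cldn2 had 204 UMIs in CO A and 5, 9 and 6 in CO B, DES A and DES B. Cldn22 had 5 UMIs in CO and 345 UMIs in DES epithelial cells. In epithelium-rich spots Cldn22 had no UMI in either CO section and 26 and 16 UMIs in DES A and DES B. Over whole sections it had 0, 3, 57 and 28 UMIs in CO A, CO B, DES A and DES B. No test is read for Cldn22, since it was chosen for these values.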
